A study of Mus musculus with 3 samples.

Results

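Krtdap Ccn3 cells are cells called epitenon, after the thin layer that wraps the tendon, and chosen by their measured UMIs of Krtdap and Ccn3. Their place in the tissue was not measured. A cell was called epitenon when it held at least 10 UMIs (unique molecular identifiers, each a counted RNA molecule) summed over Efemp1, Pi16, Scara5, Cd248, Krtdap and Ccn3, more than its sum over the tenocyte genes Tnmd, Fmod, Kera and Cilp2, at most 2 UMIs of the myeloid genes Tyrobp and Fcer1g, and none of the endothelial genes Pecam1 and Cdh5. An epitenon cell was a Krtdap Ccn3 cell when Krtdap and Ccn3 together reached at least 3 UMIs and were not below Pi16. This chose 3630 of 3977 epitenon cells, among 19709 cells that passed the filter on genes and mitochondrial UMIs. The remaining 347 epitenon cells serve as the comparison. All of these choices use measured UMIs, so the levels of the 14 genes of the rule, and every difference between Krtdap Ccn3 cells and the other epitenon cells, are descriptions and were given no test.

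Where 3 values follow each other without names, they are for 6M WT, then 6M DTR, then 21M B6. The cells came from flexor digitorum longus (FDL) tendons of mice of both sexes, pooled over animals into 1 library per group and measured by droplet single-cell RNA sequencing (10x Genomics). 6M DTR mice were Scx-Cre+; DTR F/+, in which Cre under the Scleraxis promoter opens a diphtheria toxin receptor allele, and received 5 hind paw injections of diphtheria toxin so that Scleraxis-lineage cells die. 6M WT mice were Scx-Cre-; DTR F/+ littermates, which carry the same receptor allele without Cre and received the same 5 injections. 21M B6 mice were untreated C57BL/6J animals without either allele. The labels give an age of 3 months for both DTR F/+ groups, which is the age at injection; the study harvested them later, and the names 6M WT and 6M DTR follow it. The 6M WT tendons were also digested for longer than the others, so that digestion cannot be told apart from group, and in 21M B6 strain background, toxin and the receptor allele cannot be told apart from age. With 1 library per group no difference between groups has a replicate check, no p-value was computed, and the intervals given are exact, at 95%, and cover counting error only.

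KRTDAP, the keratinocyte differentiation-associated protein, is a small secreted protein known from the upper layers of stratified epithelium, where it appears as keratinocytes mature. CCN3 is a matricellular protein of the CCN family, which also holds CCN1 and CCN2; these proteins sit in the matrix, bind integrins and modulate growth factor signalling. In tendon, the epitenon is a surface layer of fibroblast-like cells that separates the collagen-rich interior from the sheath, and lining layers of this kind secrete lubricin (PRG4) and hyaluronan.

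Krtdap lies in a run of neighbouring epidermal genes, and the sequences before the start sites of 3 of them are shown because the RNAs of these genes were found in the same cells, as described further on. In the RefSeq annotation of GRCm38.p6, Sbsn (suprabasin), Dmkn (dermokine) and Krtdap follow each other on the plus strand of mouse chromosome 7. Each sequence is written 5′ to 3′ from 100 bases before the start site to the first transcribed base, with TGAGTCA in capitals.
Sbsn, chr7:30751371-30751471: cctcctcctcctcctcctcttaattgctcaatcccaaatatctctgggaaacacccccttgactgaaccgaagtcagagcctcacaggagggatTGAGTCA
Dmkn, first start site, chr7:30763656-30763756: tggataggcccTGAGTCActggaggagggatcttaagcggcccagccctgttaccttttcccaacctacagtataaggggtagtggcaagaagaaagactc
Dmkn, a further start site, chr7:30776305-30776405: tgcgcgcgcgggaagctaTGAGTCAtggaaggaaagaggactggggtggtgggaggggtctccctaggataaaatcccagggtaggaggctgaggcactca
Krtdap, chr7:30787805-30787905: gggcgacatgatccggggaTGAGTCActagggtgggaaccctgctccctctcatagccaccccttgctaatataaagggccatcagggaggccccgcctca
The letters TGAGTCA, and TGACTCA on the other strand, are a match to the site bound by AP-1, the dimers of Fos and Jun proteins. The match began 81 bases before the Krtdap start site, 89 and 82 bases before the Dmkn start sites shown, and 6 bases before that of Sbsn, where it runs over the start. Over windows from 250 bases before to 50 after the start, 5.2% of 32851 RefSeq promoters, or 5.95% of 27025 genes, held such a match. A match is a description of the sequence and not a measured site. Fos was abundant in Krtdap Ccn3 cells of every library, at 1449, 1816 and 2526 CPM (the UMIs of a gene scaled to the same total in every class and library) in the 3 libraries. Against the other epitenon cells, the median log2 ratio of 26 listed immediate early genes was -0.004, beside 0.07 over all genes. Whether AP-1 acts on these promoters was not tested.

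There were 900 Krtdap Ccn3 cells in 6M WT, 907 for 6M DTR and 1823 for 21M B6. They made up 94.0% of the 957 epitenon cells of 6M WT (92.4% to 95.5%), 93.7% of 968 for 6M DTR (92.0% to 95.2%) and 88.8% of 2052 for 21M B6 (87.4% to 90.2%). The interval of 21M B6 lay below those of the other libraries, but this order depends on the rule: with at least 1 UMI of each gene the shares were 49.0%, 27.4% and 38.9%, with 6M DTR lowest. Of all kept cells they were 10.8%, 13.8% and 38.0% in the same order, a share that also depends on how many tenocytes and other cells each digest released. With at least 1 UMI of each gene it was 5.61%, 4.04% and 16.6%, which turns the order of the 6M libraries. The cells were deeply sequenced, with medians of 16478, 16635 and 14966 UMIs per cell and 3846, 3814 and 3261 genes. The median share of mitochondrial UMIs was 2.48% in 6M WT, 2.48% for 6M DTR and 4.34% for 21M B6. In all, the Krtdap Ccn3 cells held 14890838, 14799324 and 28374427 UMIs, of library totals of 148149903, 123918145 and 92707026.

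The median sum of Krtdap and Ccn3 was 31 UMIs per cell in 6M WT, 25 for 6M DTR and 23 for 21M B6, so that most cells stood well inside the threshold of 3. Only 7, 13 and 35 cells sat exactly at 3 UMIs, and 6, 14 and 44 epitenon cells missed by 1 UMI. Of the other epitenon cells, 22 in 6M WT, 31 for 6M DTR and 74 for 21M B6 had a sum under 3, and the remaining 35, 30 and 155 had more Pi16 than the sum. The libraries shared few cell barcodes, 76 between 6M WT and 6M DTR, 65 between 6M WT and 21M B6 and 61 between 6M DTR and 21M B6, with at most 2 of them in Krtdap Ccn3 cells of both libraries.

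**Figure D1:**
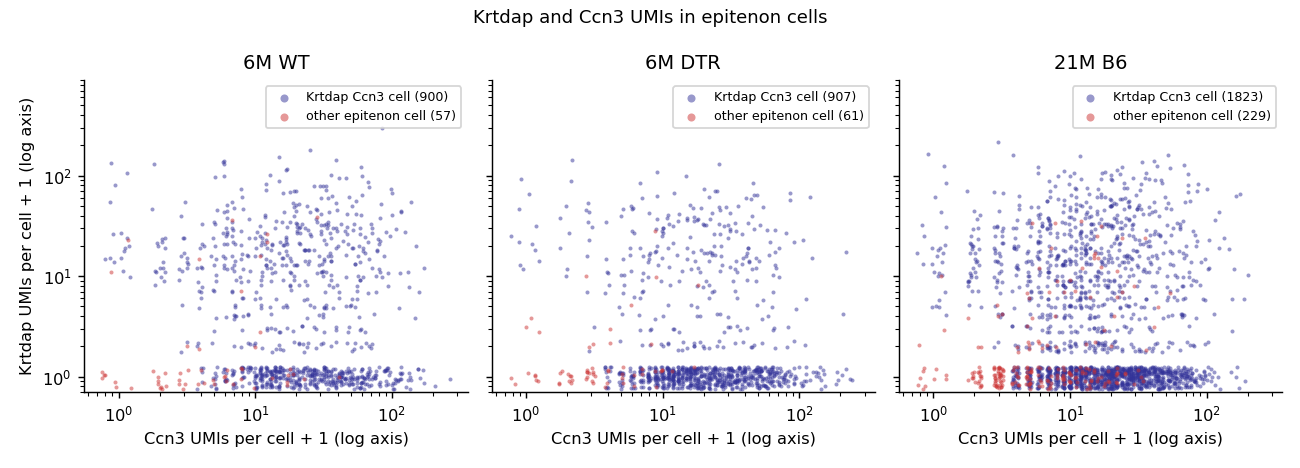
UMIs of Ccn3 (x axis) and Krtdap (y axis) plus 1 in each epitenon cell, on log axes with a small random shift, 1 panel per library. Krtdap Ccn3 cells are blue and other epitenon cells red. Nearly all Krtdap Ccn3 cells lie far along the Ccn3 axis. A dense row at 0 Krtdap holds 46.1% of them in 6M WT, 69.6% for 6M DTR and 54.7% for 21M B6.

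The label of these cells names a pair of genes, but the cells did not carry both alike. Ccn3 was found in 98.2%, 98.8% and 98.5% of them in the 3 libraries. Krtdap was found in 53.9% (50.6% to 57.2%), 30.4% (27.5% to 33.5%) and 45.3% (43.0% to 47.6%). Both genes together were present in 52.1%, 29.2% and 43.8%, and Krtdap without Ccn3 in only 1.78%, 1.21% and 1.54%. The rule therefore gathers Ccn3 cells, of which a part also holds Krtdap.

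The share of cells with Krtdap was above that in a class that should lack the gene. Krtdap counts towards the rule, so part of this difference is set by the choice of cells, also after thinning. Macrophage-rule cells (at least 10 UMIs of Tyrobp and Fcer1g and at least 10 of the C1q genes) held a Krtdap UMI in 2.18%, 2.07% and 4.24% of cells at medians of 17173, 13648 and 14599 UMIs. After each cell was thinned to 5000 UMIs, with 20, 18 and 28 shallower cells left out, the share of Krtdap Ccn3 cells with Krtdap was 49.1%, 27.1% and 40%, against 1.01%, 0.905% and 1.91% of macrophage-rule cells. The order of the libraries was the same before and after thinning, with 6M DTR lowest. Cells also tended to hold either several Krtdap UMIs or none, since 1 or 2 UMIs were seen in only 6.67%, 5.29% and 6.80%.

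Summed over Krtdap Ccn3 cells, Krtdap stood at 761 CPM in 6M WT, 395 CPM for 6M DTR and 632 CPM for 21M B6. At least 3 Krtdap UMIs were held by 47.2% of the cells in 6M WT, 25.1% for 6M DTR and 38.5% for 21M B6. In the cells chosen by that number of UMIs its level was 1565, 1527 and 1575 CPM; since they were chosen by the gene itself, fewer cells with Krtdap and less of its RNA per cell cannot be told apart. Ccn3 stood at 1851, 1790 and 1534 CPM in all Krtdap Ccn3 cells. Other epitenon cells held 234, 77.1 and 135 CPM of Krtdap and 429, 236 and 528 CPM of Ccn3, as the rule requires lower values there.

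The libraries differed in the sex of their cells, and the share with Krtdap differed between female and male cells. Cells with Xist and no Y-linked UMI, taken as female, were 61.1%, 39.9% and 46.6% of Krtdap Ccn3 cells in the 3 libraries. In female cells Krtdap was found in 55.8% (51.6% to 60.0%), 41.4% (36.3% to 46.7%) and 48.0% (44.6% to 51.4%). In male cells it was found in 48.0% (41.8% to 54.4%), 22.6% (18.8% to 26.8%) and 40.1% (36.4% to 43.8%). Within each sex 6M DTR remained the lowest library, and within each library the female share was the higher, most so in 6M DTR. The pools do not tell which animal a cell came from, so that sex and animal cannot be told apart.

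**Figure D2:**
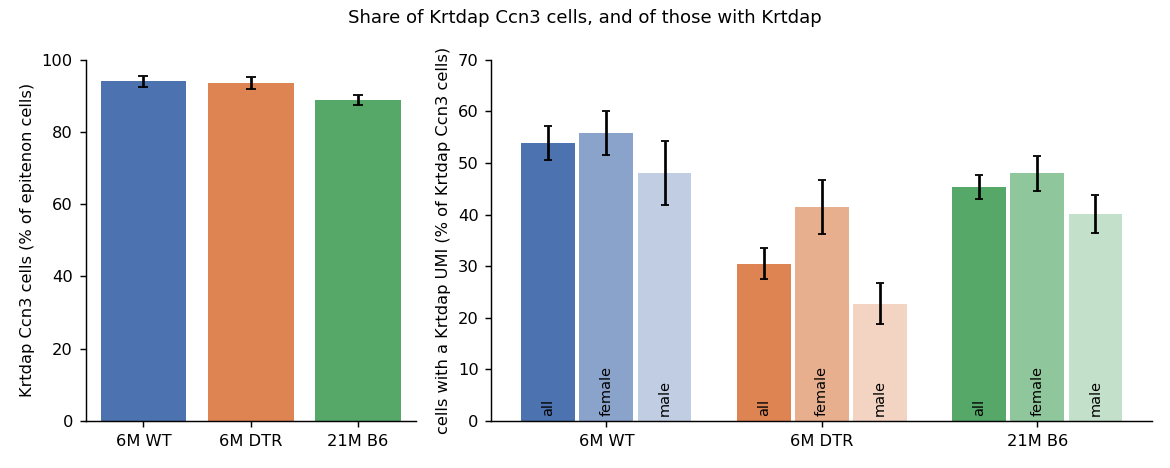
Left, Krtdap Ccn3 cells as percent of epitenon cells in each library; right, percent of Krtdap Ccn3 cells with a Krtdap UMI for all, female and male cells. Bars are shares and lines are exact 95% intervals for counting error only; Krtdap is least frequent in 6M DTR in all 3 sets, from 22.6% of male to 41.4% of female cells.

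Summed over Krtdap Ccn3 cells, defining genes of tenocytes and keratinocytes were low, although 20 cells of 6M WT formed a cluster led by Spp1, Chad and Coch, genes abundant in tenocytes. Scx, the transcription factor whose promoter drives Cre in 6M DTR, was at 6.25, 6.01 and 2.40 CPM in Krtdap Ccn3 cells of the 3 libraries, against 90.4, 113 and 72.7 CPM in tenocyte-rule cells (at least 10 UMIs of the tenocyte genes of the rule, and more than of the epitenon genes). Tnmd, a tenocyte membrane protein that the rule limits, was at 5.04, 4.05 and 4.51 CPM, against 560, 627 and 475 CPM in tenocyte-rule cells. Of the 16 listed keratinocyte genes only Sbsn, Dmkn, Krt10 and Sfn reached 5 CPM in any library. Krt5, a keratin of basal keratinocytes, had no UMI in any Krtdap Ccn3 cell, which by the 3-count limit allows up to 0.333% of cells in 6M WT to hold a Krt5 UMI and sets no limit on cells that express it below detection. Krt14, its partner, had 4, 1 and 7 UMIs, and Krt1, a keratin of upper layers, 5, 0 and 1. Krt10, a further keratin of upper layers, was at 31.6, 34.5 and 23.4 CPM. Krtdap and its neighbours were thus present with almost no Krt5, Krt14 or Krt1. Sbsn was at 791, 707 and 329 CPM and Dmkn at 222, 107 and 141 CPM. Sbsn was not restricted to these cells, with 136, 131 and 47.1 CPM in tenocyte-rule cells.

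Prg4 and Has1, known from lining layers, were abundant in these cells. Prg4 stood at 6770, 9196 and 5478 CPM in the 3 libraries, but also at 11178, 9435 and 8401 CPM in tenocyte-rule cells. Small clusters with Clic5 and Htra4, described further on, had 37, 21 and 81 Krtdap Ccn3 cells. They held 50.8%, 47.4% and 42.9% of the Prg4 UMIs of Krtdap Ccn3 cells, and without them Prg4 was at 3505, 4980 and 3300.5 CPM. Has1, a hyaluronan synthase, was at 926, 619 and 2792 CPM, while 7 of the 14 hyaluronan genes listed reached 5 CPM. Of the fibroblast genes known from the outer layers of many tissues, Cd34 was at 699, 641 and 662 CPM, Clec3b at 1282, 1564 and 1157 CPM, and Igfbp6 at 2722, 3025 and 2006 CPM. None of these 3 differed 2-fold between libraries. In the CCN family, Ccn1 was at 177, 225 and 256 CPM and Ccn2 at 546, 873 and 574 CPM beside Ccn3. The integrin subunits listed as CCN3 partners were all measured, and none of the 6 differed 2-fold from 6M WT in either library. Of all genes, 0.837% were over 2-fold higher and 1.35% lower in 6M DTR, and 2% and 1.92% in 21M B6. Nothing is read from this count.

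Compared with tenocyte-rule cells, the 10 genes with the highest mean ratios beyond the rule were Scg3, Ccl11, Qpct, Stmn2, Clic5, Gpc3, Sfrp4, Fmo2, Olfml2a and Cadm3, which belong to no single group. Clic5 was not general to Krtdap Ccn3 cells, as 818 of 900, 796 of 907 and 1540 of 1823 had no Clic5 UMI. The small clusters with Clic5 and Htra4 held 92.4%, 64.2% and 87% of its UMIs. Scg3, a secretory granule protein, was at 488, 380 and 388 CPM in Krtdap Ccn3 cells of the 3 libraries, against 5.64, 6.57 and 13.7 CPM. Stmn2, a microtubule regulator best known from neurons, was at 280, 209 and 104 CPM against 7.52, 7.03 and 6.75 CPM. Ccl11 (eotaxin-1), an eosinophil chemoattractant, was at 240, 173 and 450 CPM against 5.99, 2.43 and 15.9 CPM. In the other direction Coch (cochlin), a secreted protein abundant in tenocytes, was at 123, 17.9 and 38.6 CPM against 12198, 2944 and 5346 CPM. Chad (chondroadherin) and Thbs4 (thrombospondin 4) were likewise low, at most 57.6 and 85.0 CPM in Krtdap Ccn3 cells against at least 1432 and 2488 CPM in tenocyte-rule cells.

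Against the other epitenon cells of the same library, 11 of 2883 genes with at least 50 CPM were over 2-fold higher in Krtdap Ccn3 cells in all 3 libraries (0.382%), and 4 were over 2-fold lower in all 3 (0.139%). The rule sets this contrast, and nothing is read from these counts. Beside haemoglobins, the highest mean ratios were those of Stmn2, Tac1 and Scg3. Stmn2 was at 280, 209 and 104 CPM against 23.3, 23.5 and 15.5 CPM in the other epitenon cells. Scg3 was at 488, 380 and 388 CPM against 42.9, 76.0 and 102 CPM. Tac1, the precursor of substance P, was at 42.5, 24.5 and 105 CPM against 1.23, 3.35 and 75.3 CPM, a difference that was small in 21M B6. S100g (calbindin D9k), which binds calcium, was at 424, 166 and 90.5 CPM against 58.9, 42.5 and 18.8 CPM. Aqp1, a water channel, was at 445, 767 and 153 CPM against 150, 343 and 42.6 CPM. For these genes the levels of Krtdap Ccn3 cells exceeded those of the other epitenon cells in each library. With at least 1 UMI of each gene required, the mean log2 ratio turned to -0.18 for Scg3, -0.59 for Tac1 and -0.38 for Aqp1.

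Dmkn was also higher than in the other epitenon cells, at 222, 107 and 141 CPM against 19.6, 48.0 and 37.8 CPM. In the small groups of other epitenon cells single cells weigh heavily: 1 cell held most of the Stmn2 UMIs of that group in 6M DTR, where it had 61 cells. Of the Hba-a1 UMIs of Krtdap Ccn3 cells, 1 cell held 61.1% in 6M WT, 28.3% for 6M DTR and 96.7% for 21M B6.

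Lower in Krtdap Ccn3 cells were, among others, some genes of complement. C3, the central complement component, was at 232, 114 and 461 CPM against 1016, 323 and 1043 CPM in the other epitenon cells. C4b, which acts upstream of it, was at 51.2, 54.9 and 133 CPM against 103, 144 and 307 CPM. Inmt, a methyltransferase of parenchymal fibroblasts, was at 18.9, 10.2 and 131 CPM against 93.2, 51.4 and 253 CPM. Ogn (osteoglycin, a small leucine-rich proteoglycan) was at 53.9, 25.2 and 59.5 CPM against 161, 152 and 135 CPM. Both groups were ordered the same way in every library for these genes. Of 12 complement genes measured (at 5 CPM or more, as for all lists) 3 were over 2-fold lower in all libraries, beside 0.419% of 9543 genes at that level, and the median log2 ratio was -0.60, beside 0.07. For 15 parenchymal fibroblast genes the median was -0.62, with 1 over 2-fold lower in all libraries, and for 10 lining fibroblast genes it was -0.50, with none. The direction for C3, C4b and Ogn depends on the rule. Without the Pi16 condition the mean log2 ratios of C3 and C4b were 0.027 and 0.58, and with at least 1 UMI of each gene those of C3, C4b and Ogn were 0.45, 0.59 and 0.13.

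Among Krtdap Ccn3 cells, those with at least 3 Krtdap UMIs were compared with those that had none. There were 425 and 415 such cells in 6M WT, 228 and 631 for 6M DTR, and 702 and 997 for 21M B6, at like depths (medians of 16870 and 16220, 16960 and 16543, and 15451 and 14720 UMIs). Of 2881 genes, 3 were over 2-fold higher with Krtdap in all 3 libraries (0.104%), Dmkn, Sbsn and S100b, and 4 were over 2-fold lower in all 3 (0.139%). The split uses Krtdap itself, so these are descriptions of which RNAs went with it.

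Both chromosomal neighbours of Krtdap went with it. Dmkn was at 420 CPM with Krtdap and 33.6 CPM without in 6M WT, 309 and 33.9 CPM for 6M DTR, and 322 and 16.5 CPM for 21M B6. This is a ratio of 12.5 (10.9 to 14.4), 9.13 (8.09 to 10.3) and 19.5 (17.1 to 22.2). Sbsn was at 1187 and 385 CPM, 1189 and 514 CPM, and 607 and 132 CPM in the same order, with ratios of 3.08, 2.31 and 4.61. Sbsn was thus also present in cells without Krtdap, most so in 6M DTR. The Krtdap, Dmkn and Sbsn promoters are those printed above, each with the TGAGTCA match.

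Over all epitenon cells, the genes most like Krtdap among 7640 detected in at least 10% of cells were these neighbours. The Pearson correlation of log-normalized values with Krtdap was 0.52, 0.40 and 0.57 for Sbsn in 957, 968 and 2052 cells, and 0.51, 0.45 and 0.50 for Dmkn. Comp, Myoc and Prg4 followed with means of 0.31, 0.28 and 0.21 over the libraries. Ccn3 itself was not among them, at -0.18, -0.15 and -0.15. The genes most like Ccn3 were Stmn2 and Aspn (mean 0.33 each), Fbln2 (0.33), Cd34 (0.32) and Dpp4 (0.31). These values describe cells of the same library, which share its preparation and depth, and the rule itself sets a floor on the sum of Krtdap and Ccn3.

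Prg4, Comp, Myoc, Gdf10 and S100b were higher in the cells with Krtdap, of which only S100b was over 2-fold in every library. Prg4 was at 10549 and 3237 CPM with and without Krtdap in 6M WT, 20608 and 5192 CPM for 6M DTR, and 6951 and 4566 CPM for 21M B6. Comp (cartilage oligomeric matrix protein) was at 2368 and 907 CPM, 1710 and 909 CPM, and 1678 and 655 CPM. Myoc (myocilin), a secreted glycoprotein, was at 7585 and 3671 CPM, 5716 and 2619 CPM, and 7109 and 3986 CPM. All 3 were higher with Krtdap in each library, Prg4 least so in 21M B6. Small clusters with Clic5 and Htra4 among their leading genes (37, 21 and 81 Krtdap Ccn3 cells) held 59.5%, 74.8% and 53.0% of the Prg4 UMIs of the cells with Krtdap. Without these clusters Prg4 was at 4549 and 2476 CPM with and without Krtdap in 6M WT, 5777 and 4607 CPM for 6M DTR, and 3476 and 3119 CPM for 21M B6, and the mean log2 ratio was 0.45 in place of 1.43. Gdf10, a member of the TGF-beta superfamily, followed with 69.8 and 23.4 CPM, 42.8 and 22.3 CPM, and 78.1 and 37.6 CPM. S100b, a calcium-binding protein, was at 52.7 and 21.3 CPM, 51.3 and 18.8 CPM, and 59.2 and 29.4 CPM. Complement C3 was at 297 and 149 CPM, 204 and 82.5 CPM, and 572 and 377 CPM, so that within these cells it went with Krtdap. Across 10 measured lining fibroblast genes the median log2 ratio was 0.68 and across 8 acute phase genes 0.61, beside -0.08 over all genes. Without the clusters with Clic5 and Htra4, the mean log2 ratio of Htra4 was -0.46 in place of 1.88. The lining fibroblast median is not given without them.

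Ccl11, Cxcl14 and Smoc2 were among the genes higher in the cells without Krtdap. Cytokines and chemokines as a list were not: 2 of 19 measured were over 2-fold lower with Krtdap, beside 0.224% of 9380 genes, and the median log2 ratio was 0.09. Ccl11 was at 121 CPM with and 381 CPM without Krtdap in 6M WT, 75.3 and 219 CPM for 6M DTR, and 150 and 673 CPM for 21M B6. Cxcl14, a chemokine of fibroblasts and epithelia, was at 63.9 and 138 CPM, 44.1 and 178 CPM, and 98.3 and 293 CPM. Smoc2, a calcium-binding matricellular protein, was at 37.3 and 81.8 CPM, 11.6 and 62.1 CPM, and 42.9 and 143 CPM. These 3 genes were over 2-fold lower with Krtdap in every library. Thbs1 (thrombospondin 1), a matrix glycoprotein that activates latent TGF-beta, was at 280 and 485 CPM, 78.0 and 161 CPM, and 294 and 1026 CPM. Pthlh, the parathyroid hormone-like hormone, was at 35.8 and 91.4 CPM, 52.6 and 125 CPM, and 28.5 and 43.5 CPM. Both were lower with Krtdap in each library. Across 14 basement membrane genes, 1 of them over 2-fold lower in all libraries, the median log2 ratio was -0.71. The 8 mural genes, markers of another cell type, had a median of -2.59 in the same comparison. Without cells that held at least 10 UMIs of Rgs5, Acta2, Tagln and Myh11 the basement membrane median was -0.66.

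The contractile genes Tagln and Acta2 were also lower in cells with Krtdap, but this rested on a few cells. Tagln was at 7.79 and 66.8 CPM, 3.70 and 126 CPM, and 5.05 and 12.1 CPM. Acta2, smooth muscle actin, was at 7.65 and 67.4 CPM, 3.44 and 101 CPM, and 6.47 and 7.15 CPM. Cells with at least 10 UMIs summed over Rgs5, Acta2, Tagln and Myh11, genes of pericytes and smooth muscle, were 20 of the Krtdap Ccn3 cells in 6M WT, 32 for 6M DTR and 31 for 21M B6, and 12, 28 and 15 of them had no Krtdap. With these cells left out, the mean log2 ratio was -0.62 for Tagln and 0.36 for Acta2, in place of -3.15 and -2.72.

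**Figure D3:**
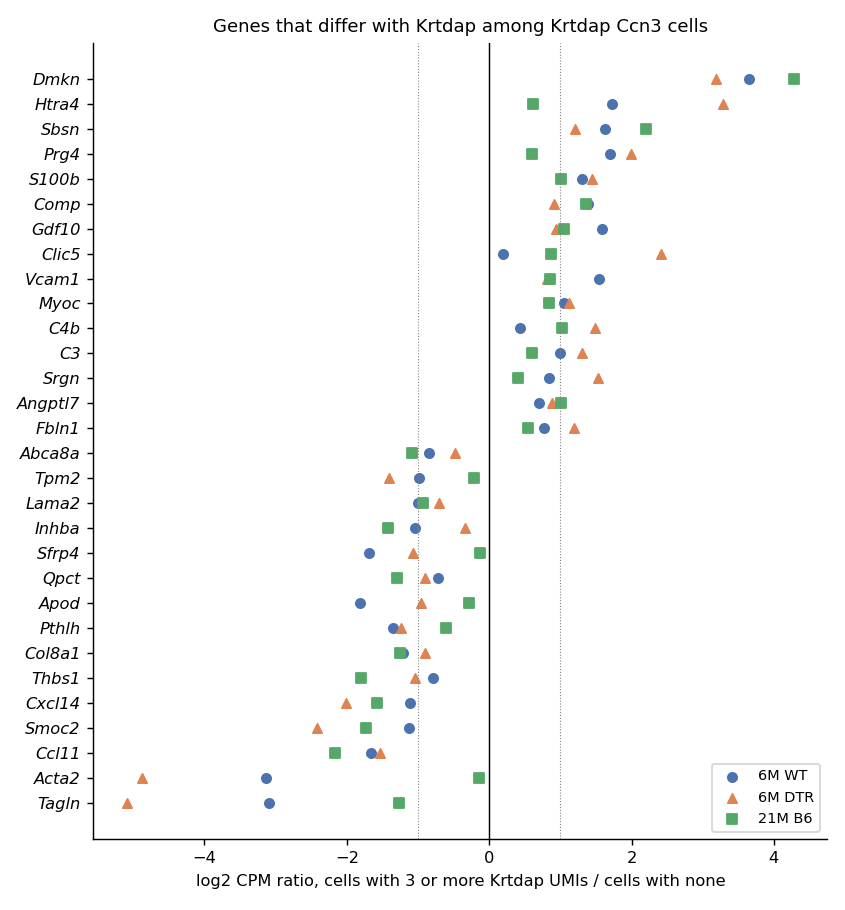
Log2 ratio of CPM in Krtdap Ccn3 cells with at least 3 Krtdap UMIs over those with none, for the 15 genes with the highest and the 15 with the lowest mean ratio, 1 point per library; dotted lines mark 2-fold. Dmkn lies farthest to the right in 6M WT and 21M B6 (ratios of 12.5 and 19.5), and the points of Tagln and Acta2 spread widely between libraries.

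The cells were not uniform beyond Krtdap. When the epitenon cells of each library were clustered without the rule's genes, 9, 7 and 10 clusters resulted in the 3 libraries. Krtdap Ccn3 cells filled 59.1% to 100% of each cluster in 6M WT, 76.8% to 100% for 6M DTR and 78.6% to 98.1% for 21M B6, so no cluster held only other epitenon cells. The share of Krtdap Ccn3 cells with a Krtdap UMI ranged more widely, from 7.69% to 85.7% between clusters of 6M WT, 0% to 85.7% for 6M DTR and 14.6% to 74.5% for 21M B6. Clusters served to describe and were not named.

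Several sets of leading genes came back in more than 1 library. Clusters with Ptx3 among their leading genes had 171 cells in 6M WT, with C3, C4b, Il6, Icam1 and Lcn2. In 6M DTR such a cluster had 236 cells, with Icam1 and Vcam1, and in 21M B6 385 cells, with Apoe, C4b and Lcn2. A further 6M DTR cluster of 99 cells held C3, C4b and Apoe. A cluster led by Smoc2, Cxcl14 and Ccl11 had 165 cells in 6M DTR, and one with Smoc2 and Ccl11 beside Ifit1 and Ccl8 had 310 cells in 21M B6. Only 22 of 157 and 14.6% of their Krtdap Ccn3 cells held Krtdap. A cluster led by Itgb4, an integrin subunit of hemidesmosomes and perineurium, with Wfdc1 and Arhgdib, had 28 cells in 6M WT and 148 in 21M B6, and there 85.7% and 74.5% held Krtdap. Clusters with Clic5, Htra4 and Col22a1 among their leading genes had 40, 25 and 89 cells in the 3 libraries. Clusters with Slurp1, a secreted Ly6-type protein of epithelia, beside Abi3bp, Slc38a1, Crabp2 and Perp had 180 cells in 6M WT and 91 in 21M B6; the Slurp1 cluster of 6M DTR, with 143 cells, held none of these 4 among its leading genes but F13a1, Tspan15 and Rab37, which were leading genes of the clusters with Clic5 in 6M WT and 21M B6. The cluster of 20 cells led by Spp1, Chad and Coch, all of them Krtdap Ccn3 cells, was seen in 6M WT. In 6M DTR a cluster of 22 cells led by Rgs5, Acta2 and Tagln consisted wholly of Krtdap Ccn3 cells by the rule, with none holding Krtdap. These were 22 of the 32 cells of that library that were rich in the mural genes named above.

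Counting cells with at least 3 UMIs of a gene, which was chosen after these clusters were seen, restates these clusters for single genes and is no separate support. Itgb4 marked 10 Krtdap Ccn3 cells of 6M WT, none of 907 for 6M DTR and 31 for 21M B6, and 9 of the 10 and 28 of the 31 held Krtdap. Smoc2 marked 8.67%, 6.95% and 13.2% of Krtdap Ccn3 cells, with Krtdap in 38.5%, 7.94% and 30.3% of the marked cells. Ifit1, an interferon-induced protein, marked 1.22%, 0.882% and 6.25%. In 21M B6, 19.3% (12.5% to 27.8%) of the cells marked by Ifit1 held Krtdap, against 47.9% (45.5% to 50.4%) of the cells with no Ifit1 UMI. Slurp1 marked 19.1%, 13.0% and 8.34% of Krtdap Ccn3 cells, and the marked cells held Krtdap about as often as cells without Slurp1 in 6M WT (52.3% and 52.8%) and in 6M DTR (29.7% and 29.6%), but more often in 21M B6 (55.3%, 47.0% to 63.3%, against 42.9%, 40.4% to 45.4%).

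The next comparison asks what differs in Krtdap Ccn3 cells after Scleraxis-lineage cells have been depleted. Between 6M DTR and 6M WT, 13 of 3025 genes with at least 50 CPM were over 2-fold higher (0.43%) and 32 were over 2-fold lower (1.06%). The median log2 ratio over all measured genes was 0.00. Among the higher genes, Pltp, a phospholipid transfer protein, was at 54.1 CPM in 6M WT against 176 CPM in 6M DTR, with a ratio of 3.25 (3.00 to 3.52). It was spread over many cells, with a Pltp UMI in 27.1% and 70.8% of Krtdap Ccn3 cells. Il1rl1 (ST2), the receptor of interleukin 33, was at 108 and 310 CPM, a ratio of 2.86 (2.70 to 3.02), and in 12.0% and 23.8% of cells. Pltp also differed in macrophage-rule cells (353 and 600 CPM), and both genes in tenocyte-rule cells, where Pltp was at 3.77 and 37.2 CPM and Il1rl1 at 6.42 and 31.0 CPM. In 21M B6 Krtdap Ccn3 cells, Pltp was at 73.4 CPM and Il1rl1 at 43.7 CPM.

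Of the other higher genes, 3 (Rgs5, Tagln and Acta2) are mural and 4 are haemoglobins. Cxcl3, a neutrophil chemoattractant, was at 25.5 and 57.8 CPM, with 30.3% and 19.3% of its UMIs in 1 cell, and at 308 and 454 CPM in macrophage-rule cells. Rgs5, a pericyte gene, was at 54.3 and 249 CPM, a ratio of 4.59 (4.25 to 4.95), and Tagln at 34.3 and 89.1 CPM. Of 8 mural genes, all measured, 6 were over 2-fold higher, beside 0.837% of the 9558 genes at 5 CPM or more (1.35% were lower); the list summed to 216 CPM in 6M WT, 516 CPM for 6M DTR and 116 CPM for 21M B6. Its most abundant gene was Pdgfrb in 6M WT and 21M B6 (61.9 and 60.8 CPM) and Rgs5 in 6M DTR, and no gene of it was at 0. Rgs5 was found in about as many cells of 6M WT as of 6M DTR (9% and 10.2%), so that its higher level lay in few cells. Without the cells rich in mural genes the log2 ratio of Rgs5 was 0.11, that of Tagln -0.17 and that of Gm13889 -0.65, in place of 2.20, 1.38 and 1.20. The haemoglobin genes Hba-a1, Hba-a2, Hbb-bs and Hbb-bt, whose near-identical copies may share reads, were each higher as well. At least 5 haemoglobin UMIs were found in 1.67% of Krtdap Ccn3 cells in 6M WT, 21.4% for 6M DTR and 0.0549% for 21M B6. In the other epitenon cells these shares were 1.75%, 22.95% and 0%. The median log2 ratio of the erythroid list in 6M DTR was 1.92 in tenocyte-rule cells and 0.12 in macrophage-rule cells. In cells with at least 3 UMIs of Pecam1 and Cdh5 and at most 2 of Tyrobp and Fcer1g it was 5.77.

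The median of the muscle list was above 0 in every class of cell compared. Of 6 measured genes of the muscle list 5 were over 2-fold higher in Krtdap Ccn3 cells of 6M DTR, with a median log2 ratio of 1.86 (0.00 over all genes, 0.837% of them over 2-fold higher), while the median was 1.06 in tenocyte-rule cells, 2.06 in macrophage-rule cells and 2.09 in endothelial-rule cells (at least 3 UMIs of Pecam1 and Cdh5 and at most 2 of Tyrobp and Fcer1g). Acta1, skeletal muscle actin, was at 6.92, 28.5 and 27.3 CPM in Krtdap Ccn3 cells of the 3 libraries. In 21M B6, 5 of the 6 genes were over 2-fold higher than in 6M WT as well, with a median of 1.98, beside 2% of all genes and a median of -0.26.

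Among the genes lower in 6M DTR were most of the acute phase list. Saa1, a serum amyloid A, was at 44.5 CPM in 6M WT, 4.12 CPM for 6M DTR and 8.99 CPM for 21M B6. Lcn2 (lipocalin 2), which withholds iron from bacteria, was at 30.2, 2.37 and 17.7 CPM. Ptx3 (pentraxin 3), a soluble pattern recognition protein, was at 499, 211 and 381 CPM. In each case 6M DTR held the lowest value. In 6M DTR, 6 of the 8 measured acute phase genes were over 2-fold lower than in 6M WT and 1, Saa2, was higher (1.41 and 9.33 CPM, in 0.551% of 6M DTR cells), with a median log2 ratio of -1.27, beside 0.00 over all genes, of which 1.35% were lower and 0.837% higher. The median of the acute phase list was -1.59 in tenocyte-rule cells and -2.53 in macrophage-rule cells, so the difference was not confined to the epitenon. Of 19 cytokines and chemokines 1 was lower and 1 higher. Saa3, at 65.01 and 17.16 CPM, had 86.6% of its 6M DTR UMIs in 1 cell. Icam1, the adhesion molecule that leukocytes bind, was at 322, 102 and 519 CPM. These genes were uneven between clusters of epitenon cells. In 6M WT, 171 cells held Ptx3 at 2228 CPM against 157 CPM in the rest, Lcn2 at 141 and 10.7 CPM and Icam1 at 1258 and 123 CPM. In 6M DTR, 236 cells held Ptx3 at 523 and 118 CPM and Icam1 at 237 and 53.5 CPM. Ptx3 was thus higher in 6M WT than in 6M DTR both inside these clusters (2228 and 523 CPM) and outside them (157 and 118 CPM). The part of these clusters in the difference was not tested.

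Several secreted and cell surface genes were lower too. Gpx3, a secreted glutathione peroxidase, was at 245 CPM in 6M WT, 63.2 CPM for 6M DTR and 228 CPM for 21M B6. Thbs1 was at 375, 132 and 698 CPM. Fbln1 (fibulin 1), an elastic fibre-associated protein, was at 73.3, 23.0 and 124 CPM. Gpc3 (glypican 3), a cell surface proteoglycan, was at 80.3, 22.9 and 83.7 CPM, and Dio2, the deiodinase that activates thyroid hormone, at 67.7, 16.2 and 44.3 CPM. For these 5 genes 6M DTR was below both other libraries. Of 13 parenchymal fibroblast genes 3 were over 2-fold lower, beside the 1.35% of all genes, with a median log2 ratio of -0.73. Igf2, a growth factor, was at 32.7, 6.49 and 18.9 CPM. Of 10 measured IGF axis genes 3 were over 2-fold lower, beside the same 1.35%, with a median log2 ratio of -0.35.

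S100g, the calbindin that set Krtdap Ccn3 cells apart from the other epitenon cells, was at 424 CPM in 6M WT, 166 CPM for 6M DTR and 90.5 CPM for 21M B6. Of 8 measured Wnt antagonists 3 were over 2-fold lower in 6M DTR (1.35% of all genes) and 4 in 21M B6 (1.92% of all genes), with medians of -0.44 and -1.04. Dkk2 was at 26.8, 5.54 and 8.67 CPM, Wif1 at 30.1, 5.81 and 6.87 CPM, and Frzb at 15.2, 5.95 and 8.81 CPM. Both comparisons share the 6M WT cells, so a high value there would lower both ratios. Coch was lower in 6M DTR at 17.9 CPM, against 123 CPM in 6M WT, and was also lower in tenocyte-rule cells (12198 and 2944 CPM), from which free RNA could reach other droplets; its part in the value was not tested. Without the 20 cells of 6M WT led by Spp1, Chad and Coch, Coch was at 70.6 CPM there and its log2 ratio -1.98 in place of -2.78, and that of Chad was -0.48 in place of -1.48.

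The comparison of 21M B6 with 6M WT addresses natural ageing, with the confounders given at the start. Of 2968 genes 59 were over 2-fold higher (1.99%) and 32 over 2-fold lower (1.08%). Over all measured genes the median log2 ratio was -0.26, so that the typical gene took a smaller share of the UMIs in 21M B6. With TMM scaling, which centres on the bulk of genes, 132 were higher and 21 lower. The values below are as CPM and should be read against that shift.

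Interferon-induced genes were higher in Krtdap Ccn3 cells of 21M B6, with Irgm1, Ifit1 and Ifi203 far higher in 1 cluster than in the rest, as given below. Irgm1, an immunity-related GTPase, was at 8.46 CPM in 6M WT, 8.99 CPM for 6M DTR and 82.2 CPM for 21M B6, and its 21M B6 to 6M WT ratio was 9.72 (8.12 to 11.7). Iigp1, of the same family, was at 10.6, 7.77 and 82.6 CPM, and Ifit1, which binds viral RNA, at 9.27, 6.01 and 73.3 CPM. Ifi203 was at 30.5, 21.4 and 163 CPM. In all 4 genes the 6M libraries lay close together and 21M B6 far above. The transcription factor genes Irf7 and Stat2 were higher by less, with Irf7 at 8.53, 7.37 and 27.6 CPM and Stat2 at 12.5, 8.72 and 34.5 CPM. Of 21 measured interferon genes 14 were over 2-fold higher and none over 2-fold lower, beside 2% and 1.92% of the 9452 genes at 5 CPM or more, with a median log2 ratio of 1.28. The median was 0.93 in tenocyte-rule cells, 0.66 in macrophage-rule cells, 0.89 in endothelial-rule cells and 1.93 in the other epitenon cells, so that all these classes showed it and Krtdap Ccn3 cells were not the highest. Irgm1 was found in 8.89% and 31.4% of Krtdap Ccn3 cells of 6M WT and 21M B6, but unevenly. In 21M B6, 1 cluster of 310 epitenon cells, with Smoc2, Ccl11 and Ifit1, held Irgm1 at 357 CPM against 37.8 CPM in the rest. Ifit1 was at 469 and 11.3 CPM and Ifi203 at 687 and 80.7 CPM. Outside this cluster Irgm1 and Ifi203 were still above the levels of 6M WT Krtdap Ccn3 cells, while Ifit1 was near its level there.

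Heat shock genes were the second group that was higher in 21M B6. Hspa1a, an inducible HSP70 chaperone, was at 107, 114 and 881 CPM in the 3 libraries, with a 21M B6 to 6M WT ratio of 8.25 (7.85 to 8.69). Hspa1b, its near-identical copy whose reads may be split with it, was at 159, 180 and 1047 CPM. Hsph1, an HSP110 that releases nucleotide from HSP70, was at 29.8, 29.2 and 201 CPM, and Hsp90aa1 at 568, 518 and 1737 CPM. Of 16 listed genes 9 were over 2-fold higher, with a median of 1.15 (-0.26 over all genes, 2% of them over 2-fold higher), beside 0.94 in tenocyte-rule cells, 0.76 in macrophage-rule cells and 0.96 in endothelial-rule cells. The list summed to 5374 CPM for 6M WT and 12078 CPM for 21M B6. Of 16 endoplasmic reticulum stress genes none was past 2-fold, and their median of -0.27 stood beside -0.26 over all genes. Of 26 immediate early genes, which respond to handling as well as to signals, 5 were over 2-fold higher, beside the same 2%, among them Junb at 1013, 1027 and 2348 CPM. The median share of mitochondrial UMIs was also highest in 21M B6, and the part of digestion or handling in these values was not tested.

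Ccl8, Il6, Inmt and Has1 were higher too. Ccl8, a monocyte chemoattractant, was at 16.9 CPM in 6M WT, 12.8 CPM for 6M DTR and 92.8 CPM for 21M B6. Il6 was at 320.7, 211.3 and 867.8 CPM. Inmt was at 18.9, 10.2 and 131 CPM, in 10.6%, 5.29% and 37.9% of cells. Has1 was 926, 619 and 2792 CPM, and its substrate-forming enzyme Ugdh 1089, 995 and 1689 CPM. C3 was at 232, 114 and 461 CPM and C4b at 51.2, 54.9 and 133 CPM. For these genes 21M B6 held the highest level. Of 15 parenchymal fibroblast genes 4 were over 2-fold higher with a median log2 ratio of 0.69, of 21 cytokines and chemokines 4 were higher and 1 lower, and of 12 complement genes 2 were higher, beside the same 2% and 1.92% of all genes. The parenchymal fibroblast median was 1.59 in tenocyte-rule cells, 1.55 in macrophage-rule cells and 0.49 in endothelial-rule cells, beside -0.25, -0.08 and -0.21 over all genes of those classes. The complement median was 0.46 in Krtdap Ccn3 cells and 0.98, 0.76 and 0.052 in those 3 classes. Nppc, the precursor of C-type natriuretic peptide, was at 9.27 and 51.1 CPM, with 49.3% of its 6M WT UMIs in 1 cell.

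Some collagen genes were lower in 21M B6. Col3a1, type III collagen, was at 1634 CPM in 6M WT, 2026 CPM for 6M DTR and 521 CPM for 21M B6, a 21M B6 to 6M WT ratio of 0.319 (0.313 to 0.326). Col1a1 was at 919, 870 and 384 CPM and Col5a2 at 436, 501 and 212 CPM. These were the 3 of 24 fibrillar collagen and processing genes over 2-fold lower (1.92% of all genes), none was higher, and the median log2 ratio was -0.40 beside -0.26 over all genes; P4ha1, a prolyl hydroxylase of collagen, was at 105, 104 and 103 CPM. In TMM scaling the log2 ratio was -1.37 in place of -1.65 for Col3a1, -0.98 in place of -1.26 for Col1a1 and -0.76 in place of -1.04 for Col5a2, so that only Col3a1 of these 3 stayed past 2-fold, while 1 other gene of the list was then over 2-fold higher. The median was -0.005 for 12 elastic fibre genes, 1 of them over 2-fold lower, beside the same 1.92%. The median of the fibrillar collagen list was -1.23 in macrophage-rule cells and -0.47 in endothelial-rule cells, beside -0.08 and -0.21 over all genes of those classes. In tenocyte-rule cells it was -0.31, near the -0.25 over all genes there. In 6M DTR none of 23 measured genes of the fibrillar collagen list was past 2-fold, beside 0.837% of all genes higher and 1.35% lower. Nothing is read from that count.

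The lowest ratios, those of Spp1 and Chad, were of genes that are abundant in tenocytes. Spp1 (osteopontin) was at 94.3, 43.4 and 3.07 CPM in Krtdap Ccn3 cells, and at 3541, 5492 and 774 CPM in tenocyte-rule cells. Chad was at 57.6, 20.6 and 7.79 CPM, against 2827, 2671 and 1432 CPM. Of 7 tenocyte genes measured in Krtdap Ccn3 cells 5 were over 2-fold lower, with a median log2 ratio of -1.38 (-0.26 over all genes, 1.92% of them over 2-fold lower). In macrophage-rule cells, which are not known to make them, the median of the 7 measured was -2.90, beside -0.08 over all genes of that class. The share of free RNA in these values was not tested. In 6M WT the 20 cells of the cluster led by Spp1, Chad and Coch held 70.2% of the Spp1 and 51.3% of the Chad UMIs of Krtdap Ccn3 cells. Without them the 21M B6 to 6M WT log2 ratio was -3.23 in place of -4.94 for Spp1 and -1.88 in place of -2.89 for Chad, and 2 of the 7 tenocyte genes were over 2-fold lower, with a median of -0.87. The epithelial-type genes Slurp1 and Serpinb7 were lower as well, Slurp1 at 230, 155 and 67.2 CPM and Serpinb7 at 71.1, 32.2 and 22.7 CPM. Slurp1 was at 950 CPM in its 6M WT cluster and 803 CPM in its 21M B6 cluster, against 42.1 and 25.7 CPM in the rest. These clusters were 180 of 957 and 91 of 2052 epitenon cells. Slc7a11, the cystine transporter subunit, was at 115, 56.3 and 25.1 CPM. For these 3 genes 6M DTR lay between the other libraries. Mural genes went the opposite way to 6M DTR, with 5 of 7 over 2-fold lower, beside the same 1.92%, and a median of -1.93. The median of the list was -1.24 in tenocyte-rule, -1.74 in macrophage-rule and 0.66 in endothelial-rule cells. Cells rich in mural genes were few, 20 of 900 Krtdap Ccn3 cells in 6M WT and 31 of 1823 in 21M B6. Their part in this difference was not tested.

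**Figure D4:**
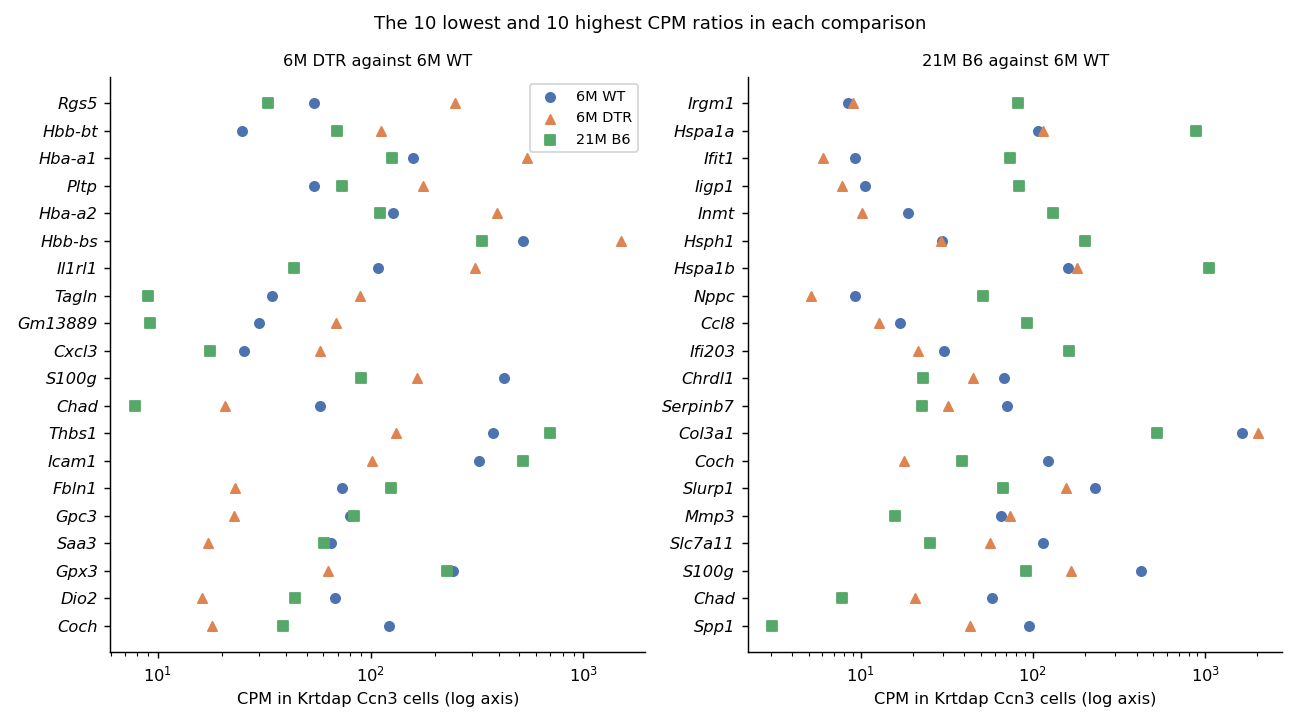
CPM in Krtdap Ccn3 cells of the 3 libraries (log axis) for the 10 genes with the highest and the 10 with the lowest ratio in each comparison with 6M WT, 1 point per library. Rgs5 reaches 249 CPM in 6M DTR, and Irgm1, Iigp1 and Ifit1 of 21M B6, between 73.3 and 82.6 CPM, lie far from both 6M libraries.

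**Figure D5:**
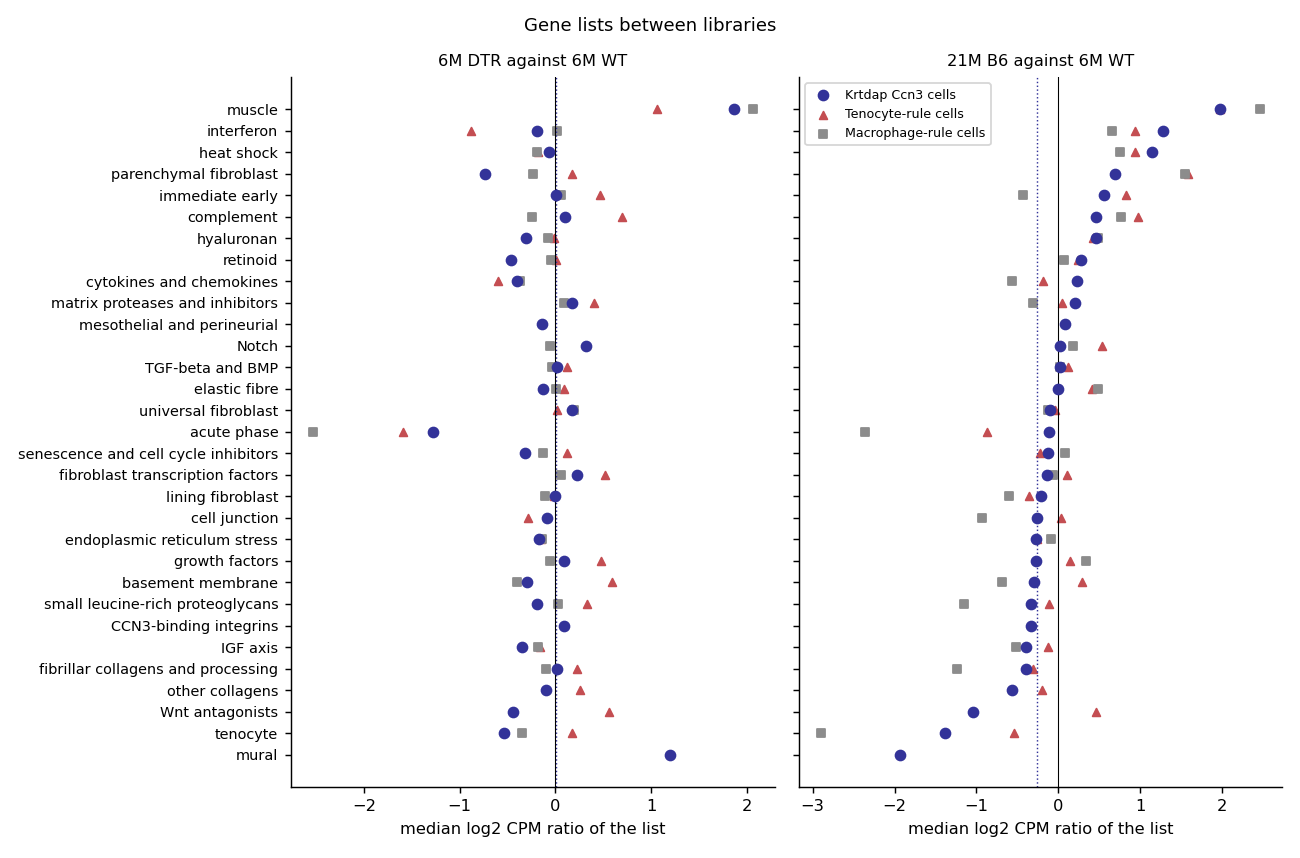
Median log2 CPM ratio of each gene list with at least 6 measured genes, for 6M DTR (left) and 21M B6 (right) against 6M WT, in Krtdap Ccn3 cells (blue circles), tenocyte-rule cells (red triangles) and macrophage-rule cells (grey squares); the dotted line is the median of all genes in Krtdap Ccn3 cells. Acute phase genes are lower in all 3 classes of 6M DTR (-1.27 in Krtdap Ccn3 cells), and interferon and heat shock genes are higher in all 3 classes of 21M B6 (1.28 and 1.15).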

How the data were processed

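The authors made 1 10x library per group and deposited raw counts of UMIs per gene and barcode without normalization. Per the file headers the counts came from Cell Ranger 6.0.1, while the submitters' processing notes name Cell Ranger 2.1.1; the genome build is not given in the sources used here. From these counts, barcodes with 1000 to 5000 genes and no more than 10% mitochondrial UMIs were kept. Krtdap Ccn3 cells and gene lists were chosen with earlier results of these data known.

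UMIs were summed over the cells of a class in each library and given as CPM, with no pseudocount; 3 counts stood for a 0 in a ratio. Genes with at least 50 CPM in either class were counted when past 2-fold, in every library where libraries were combined, and a list was summarised over its genes at 5 CPM or more. Genes named were the 15 highest and 15 lowest mean ratios against other epitenon cells with 1 direction in all libraries, the 10 highest and 10 lowest ratios between libraries, list genes, rule genes and the 5 genes most like Krtdap and Ccn3. The same rules were applied to the comparison by Krtdap UMIs and with tenocyte-rule cells, which were added after the data were seen. Mitochondrial and sex-linked genes were left out, and the values of 2 listed genes are not reported here. Cells with Xist and no UMI of the Y-linked genes were called female, and the reverse male.

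Shares have exact binomial (Clopper-Pearson) and ratios exact conditional intervals at 95%, and a count of 0 was given a limit of 3 counts; these cover counting error only. The ratio and interval steps were tested on simulated counts. Doublets were kept, because Scrublet called 1 barcode in 6M WT (0.012% of kept cells) and 1 in 21M B6 (0.0208%), which means that it did not work there; it called 73 kept cells (1.11%) in 6M DTR, 3 of them Krtdap Ccn3 cells. Clusters were made in each library from 2000 variable genes without the rule's genes, 20 principal components, 15 neighbours and Leiden resolution 0.5. Promoters are from RefSeq (GRCm38.p6).

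Alternatives changed the filter, the rule, doublets, sex, scaling, the CPM minimum, the libraries and the clustering resolution. Scanpy 1.11.5 gave clusters and Scrublet scores, scipy 1.17.1 the intervals and edgeR 4.0.16 under R 4.3.3 the TMM factors; the rest used Python 3.11.15, pandas 2.3.3, numpy 2.4.6 and, for plots, matplotlib 3.10.9.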

Additional observations from a re-analysis of the deposited data

Results flagged for a closer look

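Barcodes outside the filter also met the rule for Krtdap Ccn3 cells. Over 5000 genes, 232 barcodes did so in 6M WT, 266 for 6M DTR and 165 for 21M B6, which is 31.7%, 40.4% and 46.2% of the barcodes so removed. Over 10% mitochondrial UMIs, 7 did so in 6M DTR and 75 in 21M B6. Under 1000 genes, 22, 16 and 15 did so in the 3 libraries.

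Some listed genes stood on opposite sides of the other epitenon cells in different libraries, a difference that was not tested and that rests on 57 and 61 such cells in the 6M libraries. In log2 ratio of Krtdap Ccn3 cells to other epitenon cells, Mmp3 (stromelysin 1, a matrix protease) was at 2.28 in 6M WT, 2.58 for 6M DTR and -3.00 for 21M B6. Htra4, a serine protease of lining fibroblasts, was at 1.72 in 6M WT and -2.49 in 6M DTR. Others were positive in 6M DTR and negative in 6M WT: Ccl8 at 1.52 and -1.54, Col15a1 at 1.23 and -1.85, Il6 at 1.35 and -1.14, and Smoc2 at 1.11 and -2.74.

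Haemoglobin genes differed in direction between cells with and without Krtdap, which was not tested either. The log2 ratio was 6.26 in 21M B6 and -1.55 in 6M WT for Hba-a1, 6.16 and -1.97 for Hba-a2, and 5.76 and -2.65 for Hbb-bs. For Hbb-bt it was 6.55 in 21M B6, 1.23 in 6M DTR and -3.25 in 6M WT. In 21M B6 over 95% of the UMIs of these genes lay in 1 cell.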

How the results depend on the processing

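With 1 library per group no difference between groups could be tested, and cells, genes and libraries set limits of their own: the 57, 61 and 229 other epitenon cells give coarse ratios, genes under 50 CPM were left out of the counts over all genes but not of the lists, which began at 5 CPM, and digestion, strain and toxin cannot be told apart from group. No paired analysis was possible because each group has 1 library. Of 239 alternative values for shares, counts of genes and clusters, 181 stayed within their limits and 58 did not; of 1880 for named genes, 230 moved and 35 reversed, and the cause was not tested. Leaving out the highest Scrublet scores, mural-rich or haemoglobin-rich cells or small clusters, and the comparison by Krtdap, were chosen after seeing the data.

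Krtdap Ccn3 cells as a share of epitenon cells became, for the 3 libraries in the order used above, 92.2%, 90.9% and 85.4% from 5 UMIs, 84.5%, 79.4% and 73.8% from 10 UMIs, 97.7%, 96.8% and 96.4% without the Pi16 condition, and 49.0%, 27.4% and 38.9% with at least 1 UMI of each gene. It was 95.9% for 6M DTR and 90.2% for 21M B6 with at least 20 epitenon UMIs, and 97.0% in male cells of 6M WT. The share with Krtdap was 41.4% and 48.0% in female cells of 6M DTR and of 21M B6, and 48.0%, 22.6% and 40.1% in male cells.

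Against other epitenon cells (11 higher, 4 lower), 3 were higher from 10 UMIs, 2 with 1 UMI of each, 17 with 20 epitenon UMIs, 17 from 20 CPM, and 7 without haemoglobin cells. Lower were 8 at 5% mitochondrial UMIs, 12 without the Pi16 condition, 11 with 20 epitenon UMIs, 10 after thinning, 9 in male cells, 9 from 20 CPM, 7 without haemoglobin cells and 9 without the clusters with Clic5 and Htra4. Leaving out a library gave 12 (6M WT) to 26 (21M B6) higher and 6 (6M WT) to 14 (21M B6) lower, and 10 lower without 6M DTR. By Krtdap (3 higher, 4 lower), it gave 5 without 6M WT, 5 without 6M DTR and 6 without 21M B6 higher, and up to 8 lower (without 21M B6), in fewer required libraries.

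Between 6M DTR and 6M WT (13 higher, 32 lower), 8 were higher after thinning, 26 in male cells, 27 from 20 CPM and 8 from 100 CPM, and 49 were lower in female cells, 52 from 20 CPM and 17 from 100 CPM. Between 21M B6 and 6M WT (59 higher, 32 lower), TMM gave 132 and 21, 20 CPM 102 and 70, 100 CPM 18 lower, and male cells 59 lower. Clusters numbered 5, 4 and 4 at resolution 0.2, and 11 in 6M DTR at 1.0; the lowest share of Krtdap Ccn3 cells in a 21M B6 cluster was then 88.2% at 0.2.

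Reversed log2 ratios against other epitenon cells were -0.055 for Crabp2 and -0.40 for Rgs5 with no gene limit, and 0.089 for Ace, 0.027 for C3 and 0.58 for C4b without the Pi16 condition. With 1 UMI of each gene they were -0.38 for Aqp1, 0.0011 for Arl4d, 0.45 for C3, 0.59 for C4b, 0.049 for Col22a1, -0.0097 for Crabp2, 0.43 for Fbln1, -0.56 for Fmo2, -0.21 for Hmcn1, -0.073 for Ltbp2, 0.13 for Ogn, -1.72 for Rgs5, -0.18 for Scg3 and -0.59 for Tac1. Col22a1 was 1.499 after thinning, Hbb-bt -0.49 in male cells, and Rgs5 -1.14 without mural cells. Without haemoglobin cells Hba-a2 was -0.078, Hbb-bs -0.0498 and Hbb-bt -0.43.

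Between 6M DTR and 6M WT, cells with 1 UMI of each gene gave -2.37 for Gm13889, -1.54 for Rgs5 and -0.50 for Tagln, and leaving out mural cells -0.65 for Gm13889 and -0.17 for Tagln. By Krtdap, Clic5 was -0.10 in male cells and Acta2 0.36 without mural cells, and without the clusters with Clic5 and Htra4 Clic5 was -0.30, Htra4 -0.46 and Srgn -0.16. As a share of kept cells, Krtdap Ccn3 cells of 21M B6 ranged from 16.6% (1 UMI of each gene) to 52.1% (5% mitochondrial UMIs), and 22 values of this share moved.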

Other observations

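Further growth factor genes, and the Notch genes, of Krtdap Ccn3 cells are described here. Of 23 measured growth factor genes, 1 was over 2-fold higher and 4 over 2-fold lower in 6M DTR than in 6M WT, beside 0.837% and 1.35% of all 9558 measured genes. In 21M B6, 1 of 23 was higher and 2 were lower, beside 2% and 1.92% of 9452 genes. Of 7 measured Notch genes 1 was over 2-fold higher in 6M DTR. In 21M B6 1 of 7 was higher and 1 lower. Ereg (epiregulin), a ligand of the EGF receptor, was at 33.9 CPM in 6M WT, 73.6 CPM for 6M DTR and 17.2 CPM for 21M B6. Gdnf, a neurotrophic factor, was at 6.38, 1.15 and 5.01 CPM and Fgf1 at 9.87, 3.58 and 8.18 CPM. Hes1, a transcription factor that Notch induces, was at 134, 203 and 335 CPM, while Notch2 was at 55.3, 69.3 and 60.3 CPM and Jag1, a ligand, at 40.02, 46.15 and 30.91 CPM. Hes1 was also higher in 21M B6 in tenocyte-rule cells (295 CPM, and 94.0 CPM in 6M WT) and endothelial-rule cells (361 and 166 CPM).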
